A study of Homo sapiens with 6 samples.

Results

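The replication-dependent histone genes were followed in HEK293T, an embryonic kidney line of human origin, which was labelled as a GLO1 knockout and was grown with or without methylglyoxal (MGO). Members were the rows whose older symbol begins with HIST1H, HIST2H, HIST3H or HIST4H, pseudogene names ending in PS left out, with at least 10 counts over the 6 libraries. Of 56832 rows, 75 carried such a name and 50 reached the minimum. These were 4 H1, 11 H2A, 17 H2B, 7 H3 and 11 H4 genes. Just inside the minimum lay HIST1H2BO with 10 counts, and just outside it lay HIST3H2BA with 8 and HIST1H1T with 7. Of the 25 rows under the minimum, 8 had no count in any library. HIST1H1T, HIST1H2AA, HIST1H2BA and HIST3H3, known as testis histones, were among the 25, with 7, 4, 3 and 6 counts.

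Replication-dependent histone genes lie in clusters and supply the H1 linker and the core histones H2A, H2B, H3 and H4 with which new DNA is packed during S phase. Most of their messages have no introns and no poly(A) tail. They end in a conserved stem-loop, bound by the protein SLBP, behind which the U7 snRNP guides the cut, and they are degraded when DNA synthesis stops. Some members are also known to give polyadenylated messages, mainly in cells that leave the cycle. Because the libraries were made from poly(A)-selected RNA, the values count whatever part of each gene's RNA was carried through that selection.

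Both groups were labelled as GLO1-knockout HEK293T cells. GLO1 is the first enzyme of the glyoxalase pathway, which disposes of MGO, a dicarbonyl that reacts with proteins. The untreated group held libraries 1, 2 and 4. The treated group held libraries 1, 3 and 4 from cells given 0.2 mM MGO in the medium overnight. No library was labelled as having GLO1 intact, and the labels do not say whether the knockout line was 1 clone or the libraries were separate cultures, so the p-values below reflect the spread of these libraries and no more. The series title names the glycation of histone H3, and the comparison asks what MGO did to RNA levels. Below, values for 6 libraries are in the order untreated 1, 2, 4 and MGO 1, 3, 4. Levels are CPM, counts set to a common library total after adjustment by TMM, a scaling that aligns the bulk of genes between libraries. A log2 fold change is MGO over untreated, so that positive values are higher with MGO.

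The stem-loop that sets these genes apart is given for 6 members, chosen because they are among the best measured of their type, 4 of which rose and 2 of which (HIST3H2A and HIST1H4I) did not pass the test. Capitals mark the match to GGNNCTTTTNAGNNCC on the coding strand, and the letters come from GENCODE release 29 transcripts (GRCh38), 5′ to 3′.
HIST1H2AC: cccaaaGGCTCTTTTCAGAGCCccccta
HIST3H2A: cataaaGGCTCTTTTCAGAGCCacctac
HIST1H2BD: cccaaaGGCTCTTTTAAGAGCCacgcat
HIST1H3H: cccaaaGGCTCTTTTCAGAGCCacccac
HIST1H4H: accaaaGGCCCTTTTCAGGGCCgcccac
HIST1H4I: taaaaaGGCCCTTTTTAGGGCCcctaag
They lie in the 3′ UTR, at chr6:26124663-26124690 (plus strand), chr1:228457363-228457390 (minus), chr6:26158581-26158608 (plus), chr6:27810510-27810537 (plus), chr6:26285125-26285152 (minus) and chr6:27139648-27139675 (plus) in that order. The match began 43 bases behind the stop codon in HIST1H2AC, 40 in HIST3H2A, 36 in HIST1H2BD, 31 in HIST1H3H, 41 in HIST1H4H and 33 in HIST1H4I.

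A match was present in the gene models of 31 of the 75 rows. The most frequent form, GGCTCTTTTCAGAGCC, occurred in 17 rows of H2A, H2B and H3 genes. The forms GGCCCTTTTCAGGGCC and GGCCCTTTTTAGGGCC, in 5 and 3 rows, were found in H4 genes alone among the matches. A form with GGCTCT on the left and AGGGCC on the right was found in 1 row, HIST1H2AG. Outside these rows, 1 of 58289 coding transcripts (0.00172%) had a match in the 100 bases behind its stop codon, and it belonged to H2AFX, the gene of the variant H2A.X. A row with no match often has a model that stops at the stop codon, so no match says only that the letters are not in the model.

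The upstream sequences of 6 members are given because they form pairs of the same type with unlike responses: HIST1H2BK (log2 fold change -0.03) with HIST2H2BF (3.51), HIST1H3H (0.49) with HIST1H3B (5.12), and HIST1H1B (-2.25) with HIST1H1E (3.20). Each is the 120 bases before the RefSeq start site (GRCh38.p14), 5′ to 3′ on the gene's strand. Capitals mark the promoter element TATAAA, the box CCAAT and the octamer ATTTGCAT on either strand, so that ATTGG stands for the box read from the opposite side.
HIST1H2BK: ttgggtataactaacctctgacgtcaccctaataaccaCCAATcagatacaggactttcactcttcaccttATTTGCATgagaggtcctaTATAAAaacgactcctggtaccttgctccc
HIST2H2BF: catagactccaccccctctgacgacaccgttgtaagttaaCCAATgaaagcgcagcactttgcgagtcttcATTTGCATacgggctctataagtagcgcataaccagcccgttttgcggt
HIST1H3H: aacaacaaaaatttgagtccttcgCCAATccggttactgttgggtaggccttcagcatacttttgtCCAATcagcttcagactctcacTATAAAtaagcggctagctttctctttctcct
HIST1H3B: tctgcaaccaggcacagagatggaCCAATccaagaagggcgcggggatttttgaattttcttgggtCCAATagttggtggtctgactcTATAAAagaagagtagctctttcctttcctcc
HIST1H1B: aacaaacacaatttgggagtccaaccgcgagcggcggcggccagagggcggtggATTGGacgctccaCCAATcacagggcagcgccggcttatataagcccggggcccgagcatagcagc
HIST1H1E: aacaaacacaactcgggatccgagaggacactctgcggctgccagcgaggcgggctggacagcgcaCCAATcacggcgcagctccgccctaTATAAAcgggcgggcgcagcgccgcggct
Their positions are chr6:27146856-27146975 (minus strand), chr1:149812371-149812490 (minus), chr6:27809931-27810050 (plus), chr6:26032100-26032219 (minus), chr6:27867589-27867708 (minus) and chr6:26156209-26156328 (plus) in that order. HIST1H2BK and HIST2H2BF both had CCAAT and the octamer, but TATAAA was found in HIST1H2BK alone. Both H3 promoters had a pair of CCAAT boxes and TATAAA. Both H1 promoters had CCAAT, but TATAAA was found in HIST1H1E alone.

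Total counts ran from 41002134 to 45910040 in untreated and from 19195920 to 21544749 in MGO libraries, so a treated level of the same CPM rests on fewer reads. The 75 rows held 0.0195% to 0.0201% of all counts in untreated and 0.0328% to 0.0350% in MGO libraries. Mitochondrial transcripts took 4.20% to 5.42% and 5.34% to 8.17%, and the ranges overlap. GLO1 transcripts were counted 1969 to 2365 times in untreated and 2434 to 3048 times in MGO libraries. Scaled, this was 46.2 to 51.0 and 134.5 to 144.8 CPM, higher with MGO (log2 fold change 1.55, SE 0.042, edgeR adjusted p = 6.96e-25). Both groups carry the knockout label, and counts per gene do not show whether the transcripts are intact, so GLO1 checks neither the labels nor the loss. Among markers of the line, KRT8, KRT18 and EPCAM were present and higher in MGO libraries, CDH1 was lower, and PAX2, NEFL and NEFM were lower. Defining markers of blood (PTPRC), endothelium (PECAM1), fibroblasts (COL1A2) and hepatocytes (ALB) were at 0 to 8 counts in every library.

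Histone genes rose. Of the 45 members with enough counts to be tested, 41 (91.1%) were higher in MGO libraries, 1 was lower and 3 did not pass, at an edgeR adjusted p under 0.05. Of all 17415 genes tested, 83.1% were called in either direction, 41.8% higher and 41.2% lower. A rise of at least 2-fold was seen in 33 members, against 19.8% of all genes, and 1 was at least 2-fold lower, against 16.7%. The median log2 fold change was 2.25 over the tested members and 0.01 over all genes. Tested against a fold of 1.5 (edgeR), 5 of the 41 calls were lost, those of HIST1H1C (adjusted p = 1), HIST2H2BE (1), HIST1H3H (0.953), HIST2H2BA (0.191) and HIST1H2AI (0.163). All 41 members called higher had every MGO library above every untreated library, a separation that 41.8% of all genes showed upward and 41.7% downward.

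Part of that count follows from which members could be tested. The filter asks for about 0.320 CPM in 3 libraries. That level was reached in MGO but not in all untreated libraries by 21 of the 45 members, which favoured rises among them. The other 24 were at that level in all untreated libraries. Of these, 20 rose, HIST1H1B fell and 3 did not pass. Their median log2 fold change was 1.20. Among all 15533 tested genes at that level in untreated libraries, 36.8% rose and 46.2% fell, with a median of -0.12. The same limit touches every count and median of tested members by type, level, place, pair, promoter or gene model below, and beside other lists. The shares of all genes to set beside those counts are the 36.8% that rose here and the 41.8% over all 17415 tested. With the filter lifted, all 50 members entered the test, and 41 were higher, 6 did not pass and 3 (HIST1H1B, HIST1H2BK and HIST1H2BO) were lower. Of all 35722 genes tested there, 24.8% were higher and 24.5% lower.

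Raw counts, before scaling, were also compared. In 25 of the 45 tested members the raw counts of every MGO library exceeded those of every untreated library, which 12.1% of all tested genes showed, the MGO libraries being shallower. In 11 members all raw MGO counts were the smaller, as in 77.3% of all tested genes. Most of the 25 are among the members that could be tested only through MGO, so their share of the 45 is raised by the filter. In bulk RNA, a changed share of cells at a stage of the cycle and a changed amount of RNA per cell cannot be told apart. This holds for every gene below, whether it rose or fell.

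**Figure D1:**
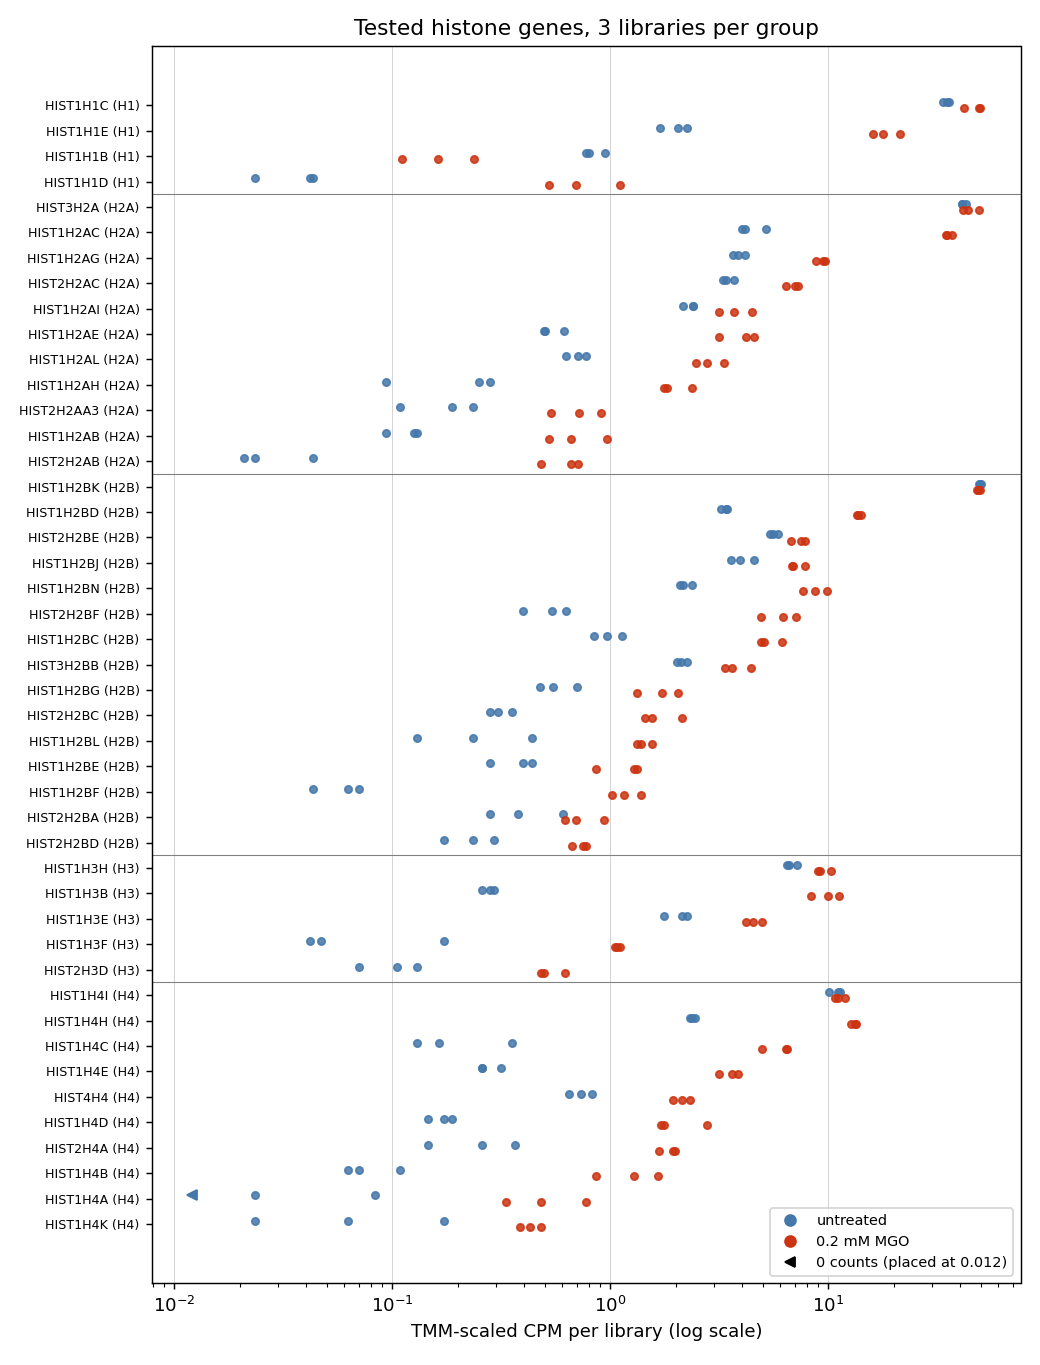
TMM-scaled CPM (log scale) of the 45 tested histone genes in each of 3 untreated (blue) and 3 MGO (red) libraries, grouped by histone type and ordered by mean level. Red points lie right of blue ones in 41 rows, overlap them in HIST3H2A, HIST1H2BK and HIST1H4I, and lie left of them in HIST1H1B alone.

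Linker histones H1 bind the DNA between nucleosomes, and their genes moved in both directions. Of the 4 members, HIST1H1C, HIST1H1E and HIST1H1D rose and HIST1H1B fell. HIST1H1C (chr6:26055787-26056428, minus strand), which encodes H1.2, had 35.9, 33.5, 35.0, 49.4, 49.1 and 41.9 CPM, a log2 fold change of 0.42 (SE 0.055, edgeR adjusted p = 4.06e-08). It was already abundant in untreated cells and its groups did not overlap.

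HIST1H1E (chr6:26156354-26157107, plus strand), which encodes H1.4, had 2.24, 1.69, 2.04, 21.4, 17.8 and 16.1 CPM. This was 9.24-fold higher on the mean (log2 fold change 3.20, SE 0.11, edgeR adjusted p = 1.91e-19). Even the raw counts were higher, at 81 to 104 in untreated and 331 to 387 in MGO libraries. HIST1H1D (chr6:26234268-26234933, minus strand), the gene of H1.3, was nearly silent before treatment, with 2, 2 and 1 counts, and had 20, 13 and 11 counts with MGO (log2 fold change 4.25, SE 0.52, edgeR adjusted p = 8.19e-09).

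HIST1H1B (chr6:27866849-27867529, minus strand), which encodes H1.5, was the only member called lower. Its levels were 0.798, 0.940, 0.775, 0.111, 0.161 and 0.238 CPM, from 37, 45, 33, 2, 3 and 5 counts. All 3 MGO libraries lay below all 3 untreated ones (log2 fold change -2.25, SE 0.39, edgeR adjusted p = 5.11e-06). HIST1H1A, a further somatic H1 gene, had 1 count in all.

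H2A forms a dimer with H2B at the outside of the nucleosome core. Of its 11 members 10 rose and 1 did not pass. The median log2 fold change was 2.02. Of the 7 that were at the filter level in all untreated libraries, 6 rose, with a median of 1.26. HIST1H2AC (chr6:26124145-26139116, plus strand) had 4.14, 5.20, 4.02, 35.2, 36.8 and 34.7 CPM. The treated libraries sat 7.99-fold higher with little spread (log2 fold change 2.99, SE 0.077, edgeR adjusted p = 1.31e-25).

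HIST3H2A (chr1:228456979-228457873, minus strand), whose product is also a canonical H2A, had 40.9, 41.1, 42.8, 48.9, 44.0 and 41.3 CPM. The lowest MGO library lay inside the untreated range, and the log2 fold change of 0.10 (SE 0.052) did not pass (edgeR adjusted p = 0.0729). It did pass, as higher, with at least 1 CPM asked in every library (log2 fold change 0.17, adjusted p = 0.00670), under RLE scaling (adjusted p = 0.0303), under upper quartile scaling (adjusted p = 0.0375) and without MGO library 4 (adjusted p = 0.0331). Its sign turned with library size as the scale (-0.0047), all by edgeR.

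HIST1H2AG (chr6:27133042-27135291, plus strand) had 3.86, 3.66, 4.16, 8.79, 9.50 and 9.64 CPM (log2 fold change 1.26, SE 0.10, edgeR adjusted p = 5.04e-13). HIST2H2AC (chr1:149886975-149887364, plus strand) had 3.41, 3.30, 3.71, 7.24, 7.03 and 6.37 CPM (log2 fold change 0.98, SE 0.11, edgeR adjusted p = 1.38e-09). In both, the groups were well apart. The other 7 H2A members rose by log2 fold changes from 0.70 in HIST1H2AI to 4.24 in HIST2H2AB, the latter from 4 untreated counts in all. The model of HIST2H2AB overlaps BOLA1. HIST2H2AA3 is a near copy of HIST2H2AA4, which had 3 counts in all, so reads may be split or lost between them.

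H2B had the most members, 17. Of the 15 tested, 14 rose and HIST1H2BK did not pass. The median log2 fold change was 1.62. Of the 9 at the filter level in all untreated libraries, 8 rose, with a median of 1.55. HIST1H2BK (chr6:27146418-27146798, minus strand) had 49.5, 49.1, 50.2, 48.7, 49.4 and 48.1 CPM. The 2 groups overlapped and the libraries differed by little (log2 fold change -0.03, SE 0.044, edgeR adjusted p = 0.603). Scaled by library size alone it was called lower (-0.13, edgeR adjusted p = 0.0124).

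HIST1H2BD (chr6:26158146-26171349, plus strand) had 3.43, 3.22, 3.41, 13.6, 14.2 and 13.5 CPM, 4.11-fold higher with MGO (log2 fold change 2.04, SE 0.091, edgeR adjusted p = 1.96e-19). HIST2H2BE (chr1:149884459-149886652, minus strand) had 5.39, 5.85, 5.59, 7.85, 6.76 and 7.51 CPM (log2 fold change 0.39, SE 0.098, edgeR adjusted p = 0.000544). HIST1H2BJ (chr6:27125897-27132750, minus strand) had 3.95, 3.57, 4.56, 7.85, 6.87 and 6.79 CPM (log2 fold change 0.83, SE 0.11, edgeR adjusted p = 5.92e-08). The groups were separate in all of these, but the rise in HIST2H2BE was small and was no longer called with no filter on low counts (edgeR adjusted p = 0.0781).

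HIST2H2BF, whose promoter carries the same CCAAT and octamer letters as that of HIST1H2BK, had 0.539, 0.627, 0.399, 7.07, 6.23 and 4.89 CPM (log2 fold change 3.51, SE 0.18, edgeR adjusted p = 1.5e-17). Its model overlaps FCGR1A and an unnamed transcript, and the sources used here do not say whether counting used strand. HIST1H2BN had 2.16, 2.09, 2.37, 7.63, 9.82 and 8.65 CPM and HIST1H2BC had 0.841, 0.961, 1.13, 6.13, 5.05 and 4.89 CPM. Both rose, by log2 fold changes of 1.98 and 2.45, and neither pair of groups overlapped. The model of HIST1H2BN overlaps HIST1H2AK, HIST1H2BPS2 and HIST1H2AL, a member that also rose, so the values of HIST1H2BN and HIST1H2AL may not be independent.

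HIST2H2BA, HIST2H2BC and HIST2H2BD pass the naming rule but are annotated as transcribed pseudogenes. All 3 were called higher, at log2 fold changes of 0.81, 2.44 and 1.62. The call of HIST2H2BA was the weakest of all 41 (edgeR adjusted p = 0.0272) and was lost on leaving out untreated library 1 (adjusted p = 0.130), untreated library 4 (0.0776), MGO library 1 (0.156) or MGO library 3 (0.0608), and with DESeq2 (0.0631). The other tested H2B members, HIST1H2BE, HIST1H2BF, HIST1H2BG, HIST1H2BL and HIST3H2BB, rose by log2 fold changes of 0.83 to 4.26. HIST1H2BF gave the largest of these from 2, 3 and 3 untreated counts.

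H3 and H4 form the tetramer at the centre of the nucleosome, and the tail of H3 carries the lysine 4 methylation named in the series title. All 5 tested H3 members rose, with a median log2 fold change of 2.35. Only HIST1H3H and HIST1H3E were at the filter level in all untreated libraries. HIST1H3B (chr6:26031650-26032060, minus strand) had 0.259, 0.293, 0.282, 11.2, 9.98 and 8.36 CPM. From 12, 14 and 12 counts it went to 203, 186 and 176, the largest change of any member (log2 fold change 5.12, SE 0.18, edgeR adjusted p = 2.1e-22).

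HIST1H3H (chr6:27810064-27811300, plus strand) had 6.62, 7.19, 6.44, 8.95, 9.13 and 10.3 CPM, a modest rise (log2 fold change 0.49, SE 0.091, edgeR adjusted p = 1.19e-05). HIST1H3E (chr6:26224199-26227473, plus strand) had 2.13, 2.26, 1.76, 4.53, 4.94 and 4.18 CPM (log2 fold change 1.14, SE 0.14, edgeR adjusted p = 9.48e-09). HIST1H3F (chr6:26250195-26250605, minus strand) had 0.172, 0.0418, 0.0470, 1.11, 1.07 and 1.05 CPM (log2 fold change 3.56, SE 0.41, edgeR adjusted p = 2.34e-09). Without untreated library 1, the highest of its group, the log2 fold change of HIST1H3F was 4.47. Of the tested H3 genes, HIST1H3H had the highest untreated level per kb and the smallest change, and no groups overlapped. HIST2H3D rose by 2.35.

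Of the 10 tested H4 members 9 rose, all at least 2-fold, and the median over the 10 was 3.22 on the log2 scale. Of these 10, 7 were under the filter level in at least 1 untreated library and could be tested only through MGO. The other 3, HIST1H4I, HIST4H4 and HIST1H4H, had a median of 1.54, close to the 1.55 of H2B members at that level, so the types are not ranked by their medians. HIST1H4H (chr6:26277609-26285638, minus strand) had 2.37, 2.32, 2.44, 12.7, 13.3 and 13.4 CPM (log2 fold change 2.46, SE 0.098, edgeR adjusted p = 1.22e-20). HIST1H4C (chr6:26103876-26104310, plus strand) had 0.129, 0.355, 0.164, 6.47, 6.39 and 4.94 CPM, 27.4-fold higher on the mean (log2 fold change 4.73, SE 0.23, edgeR adjusted p = 1.76e-18). In both genes the groups lay far apart.

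HIST1H4E (chr6:26204552-26206038, plus strand) had 0.259, 0.313, 0.258, 3.87, 3.60 and 3.14 CPM (log2 fold change 3.65, SE 0.22, edgeR adjusted p = 8.18e-16). HIST1H4I (chr6:27138588-27139881, plus strand) was the exception of its type. It had 10.1, 11.3, 11.04, 11.1, 11.9 and 10.7 CPM, overlapping groups and a log2 fold change of 0.05 (SE 0.080, edgeR adjusted p = 0.562) whose sign turned under library size scaling (-0.055). HIST4H4, alone on chromosome 12, rose from 0.733, 0.648 and 0.822 to 1.93, 2.31 and 2.14 CPM (log2 fold change 1.54). HIST2H4A, with a near copy in HIST2H4B (4 counts in all), rose by 2.85. HIST1H4A rose by 3.70, and by 5.07 without untreated library 2.

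Of the 50 members, 5 were not tested. HIST1H3A and HIST1H3I had 2 to 4 and 0 to 3 untreated counts and 3 to 8 and 6 to 18 MGO counts. HIST1H2BH went the other way, with 14, 6 and 6 untreated and 0, 1 and 3 MGO counts. HIST1H2BO had 5, 2 and 3 untreated counts and none with MGO, where 3 counts correspond to 0.143 to 0.166 CPM, more than its untreated mean of 0.0734 CPM. HIST1H4J had 5 to 11 and 1 to 12 counts, with no separation. With no filter on low counts, HIST1H3A (edgeR adjusted p = 0.0154) and HIST1H3I (6.02e-08) were called higher and HIST1H2BO lower (0.0396). HIST1H2BH (0.0728) and HIST1H4J (0.183) did not pass there.

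Per length, the order of levels changed between groups. As CPM per kb of GENCODE gene model, HIST1H2BK (130), HIST1H1C (54.2) and HIST3H2A (46.5) led in untreated cells, followed at a distance by HIST2H2AC (8.91), HIST1H4I (8.36) and HIST1H3H (5.45). The same 3 led with MGO, at 128, 72.9 and 49.97 CPM per kb, but HIST1H1E (24.4), HIST1H3B (24.0) and HIST1H2AC (21.3) now came next. Before treatment those had stood at 2.64, 0.676 and 2.67 CPM per kb. Models that stop at the stop codon are short, which raises this measure for HIST1H2BK and HIST1H1C.

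Summed over all 75 rows, histone levels went from 189.4, 189.9 and 193.4 CPM to 371.6, 361.5 and 335.7 CPM, 1.87-fold on the means. The sum was higher in each type. H1 went from 37.7 ± 1.38 to 66.3 ± 6.77 CPM (SD, n = 3 per group), 1.76-fold. H2A went from 57.5 ± 1.38 to 111 ± 5.57 CPM, 1.93-fold, and H2B from 71.0 ± 1.15 to 110 ± 3.13 CPM, 1.55-fold. H3 went from 9.43 ± 0.632 to 26.5 ± 0.882 CPM, 2.82-fold, and H4 from 15.2 ± 0.548 to 42.5 ± 2.23 CPM, 2.79-fold. In every type the 3 MGO libraries lay above the 3 untreated ones.

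**Figure D2:**
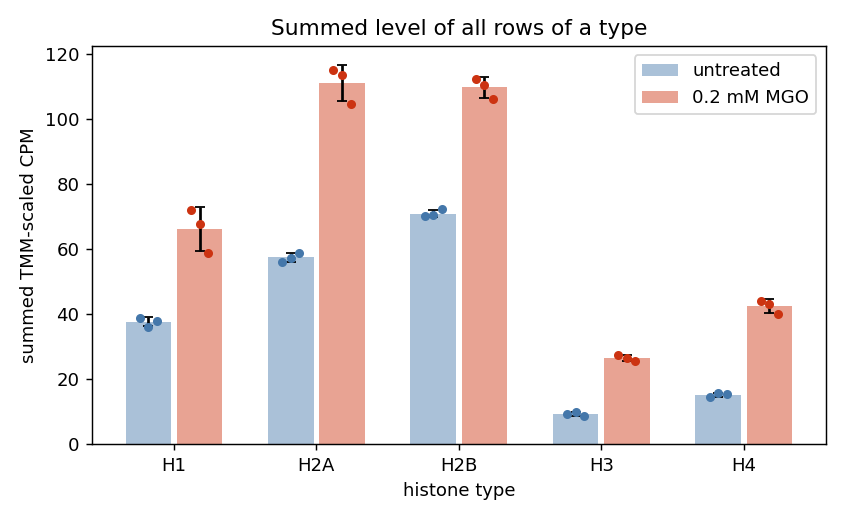
Summed TMM-scaled CPM of all rows of a histone type, as the mean of 3 libraries per group (bars, from 0), SD (error bars) and each library (points). All MGO points lie above all untreated points, with folds of 1.76 (H1), 1.93 (H2A), 1.55 (H2B), 2.82 (H3) and 2.79 (H4).

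The sums are carried by few genes. HIST1H2BK, HIST3H2A and HIST1H1C, the highest by mean CPM over the 6 libraries, made up 66.01% of the untreated and 39.4% of the MGO sum. Together they went from 126 ± 2.18 to 140 ± 8.10 CPM, 1.11-fold. The other 72 rows went from 64.9 ± 1.53 to 216 ± 10.4 CPM, 3.33-fold. H1, H2A and H2B hold 1 of these 3 each, and H3 and H4 hold none. The 3 stood at 1.34-fold (HIST1H1C), 1.075-fold (HIST3H2A) and 0.98-fold (HIST1H2BK), which holds down the folds of their types. The types are therefore not ranked by the folds of their sums.

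The members were also split by level. The bands were set by the mean over all 6 libraries and were chosen after the values were seen. Of 15 members at 5 CPM or more, 12 rose and 3 did not pass. Their median log2 fold change was 0.98. In that band 41.1% of all tested genes rose (median -0.06). All 15 members at 1 to 5 CPM rose (median 2.45), as did 14 of the 15 tested members under 1 CPM (median 2.38). Of all tested genes, 38% rose at 1 to 5 CPM (median -0.05) and 47.8% under 1 CPM (median 0.62). A mean that includes MGO, and a filter that can be passed through MGO alone, both favour risers in these bands. Kept to genes at the filter level in all untreated libraries, the highest band held 14 members, of which 11 rose (median 0.91), against 41% of all genes there (median -0.07). The band from 1 to 5 CPM held 9, all of which rose (median 1.55), against 33.6% (median -0.17). The lowest band held HIST1H1B alone, which fell, so all 14 risers under 1 CPM could be tested only through MGO. Of all genes kept in that band, 13.3% rose and 41.5% fell.

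**Figure D3:**
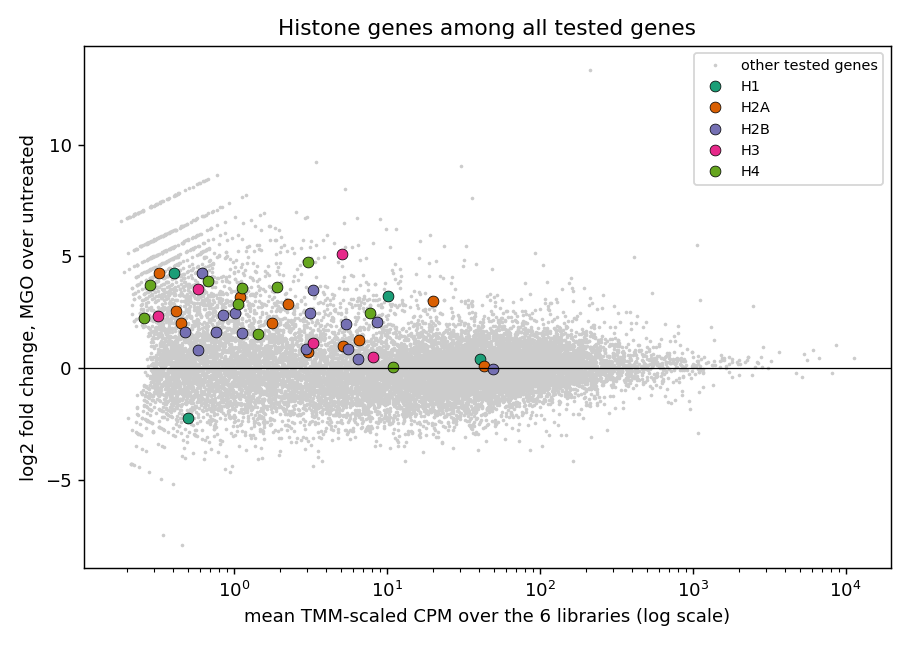
Log2 fold change (MGO over untreated) against the mean TMM-scaled CPM over 6 libraries (log scale) for all 17415 tested genes (grey), with histone genes coloured by type. The 3 histone genes not called, HIST1H2BK, HIST3H2A and HIST1H4I, lie on the zero line at over 10 CPM, and only HIST1H1B lies below it among those called.

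By place, the rise was not limited to 1 cluster. In HIST1 on chromosome 6, 29 of 32 tested members rose, 1 fell and 2 did not pass. The median log2 fold change there was 2.41. Of the 18 at the filter level in all untreated libraries, 15 rose (median 1.41). In HIST2 on chromosome 1, all 10 members rose (median 2.19), 3 of them at that level when untreated (median 0.98). Of the 2 HIST3 members, HIST3H2BB rose (0.83) and HIST3H2A did not pass. The HIST1 region (chr6:25726132-27893843) also holds 19 other coding genes with a row, of which 14 were tested. Of these 5 rose and 9 fell, with a median of -0.57, where 41.8% of all genes tested rose and 41.2% fell. BTN2A1, a butyrophilin, rose from 32.5 to 123 CPM while BTN3A2, in the same region, fell from 12.4 to 2.84 CPM.

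**Figure D4:**
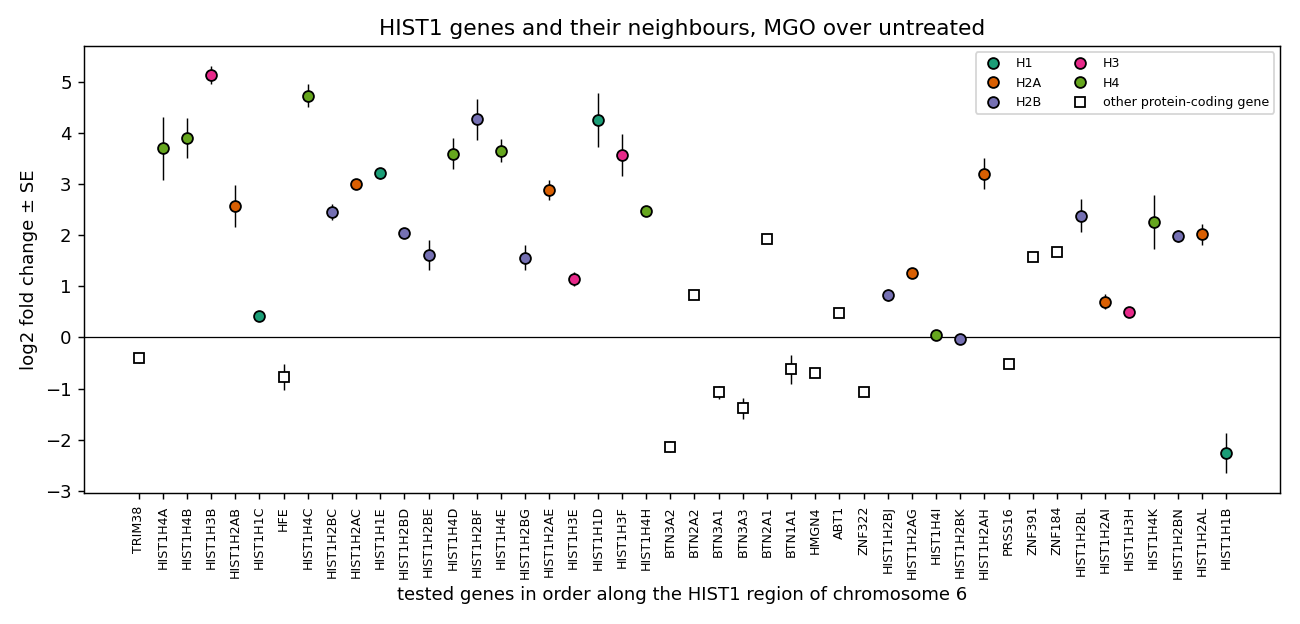
Log2 fold change with SE of each tested gene in its order along the HIST1 region of chromosome 6 (spacing not to scale), histone genes as coloured circles and other coding genes as open squares. Histone genes lie above 0 except HIST1H2BK at -0.03 and HIST1H1B at -2.25, while the other genes between them lie on both sides.

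Many H2A and H2B genes face away from each other across a short gap, so that 1 stretch of DNA serves as promoter for both. There were 13 such pairs of rows with gaps of at most 1000 bases, and both partners were tested in 8. Both rose in 6 of them, such as HIST1H2BC with HIST1H2AC (log2 fold changes 2.45 and 2.99, 218 bases apart) and HIST1H2BJ with HIST1H2AG (0.83 and 1.26, 291 bases apart). In the other 2, 1 partner rose and the other did not pass. Taken singly, 41.8% of all genes tested rose. HIST1H2BK (-0.03) lay 330 bases from HIST1H2AH (3.20), which went from 0.280, 0.251 and 0.0940 to 2.38, 1.83 and 1.76 CPM. HIST3H2A (0.10) lay 233 bases from HIST3H2BB (0.83). In both of these the gene that did not pass was the far more abundant partner per length, at 130 against 0.538 and 46.5 against 0.899 CPM per kb in untreated cells.

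In the 250 bases before the start, CCAAT was found in 50 of the 60 rows with a RefSeq promoter, against 32.7% of all 27305 promoters. TATAAA was found in 40, against 11.4%, and the octamer in 20, against 1.68%. The octamer occurred in 9 of 13 H2B and 11 of 16 H2A promoters and in no H1, H3 or H4 promoter. All 12 H3 promoters and all 6 H1 promoters had CCAAT, but only 3 of 13 H4 promoters did. Of the tested H2B members with a promoter, 3 of 4 with the octamer rose (median log2 fold change 0.61) and 4 of 4 without it rose (median 2.01), groups too small to set against each other. A match is a description of the letters and not of a site in use.

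Gene models differ in where they end, and the GENCODE models used here may not be those the authors counted with. Of 18 coding members whose model stops at the stop codon, 15 were tested, and 13 rose and 1 fell (median 2.56). Of 29 whose model goes past it, 27 were tested and 25 rose (median 2.02). A poly(A) signal (AATAAA or ATTAAA) in the last 40 bases of a model was present in 20 members, of which 17 of 18 tested rose (median 2.00). It was absent in 30, of which 24 of 27 tested rose and 1 fell (median 2.38). The 10 members that overlap another annotated gene all rose (median 2.03), as did 31 of 35 tested members without overlap (median 2.35). These splits were chosen after the values were seen, and rises were frequent on both sides of each. Over all genes tested 41.8% rose, and 36.8% did among those at the filter level in all untreated libraries. Members that could be tested only through MGO were not set apart in these splits.

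The variant histones, whose genes stand outside the clusters and mostly give polyadenylated messages, did not move with the members. Of 11 tested, 3 rose, 7 fell and 1 did not pass, with a median of -0.31. Among all genes tested, 41.8% rose and 41.2% fell. H3F3A, 1 of 2 genes for H3.3, fell from 304 ± 4.82 to 95.04 ± 4.57 CPM (log2 fold change -1.68, edgeR adjusted p = 2.64e-26). H3F3B, which encodes the same H3.3 protein, rose from 885 ± 5.96 to 1274 ± 8.57 CPM (0.53, edgeR adjusted p = 6.5e-16). H2AFZ and H2AFV, which encode the H2A.Z proteins, fell by 1.30 and 0.88 on the log2 scale. H2AFY2, a macroH2A gene, fell by 1.22, and H1F0, the linker histone of resting cells, rose by 0.60. H2AFX, the other gene with a stem-loop match, fell from 418 to 337 CPM (-0.31).

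Genes for factors that switch histone genes on were mostly higher. Of 10 tested, 8 rose and 2 (E2F1 and CCNE1) did not pass, against 41.8% of all genes tested that rose. The median was 0.59, and log2 fold changes ran from -0.04 to 1.49. NPAT, the coactivator at the histone locus body, went from 20.7, 22.4 and 22.9 to 30.2, 32.6 and 36.5 CPM (log2 fold change 0.60, edgeR adjusted p = 5.46e-10). CASP8AP2, its partner there, rose from 41.6 to 75.3 CPM (0.86), and HINFP, which binds H4 promoters, rose from 14.0 to 36.7 CPM (1.39). CDK2, whose kinase activity switches on NPAT, rose from 81.7 to 122 CPM, and its activating phosphatase CDC25A rose from 106 to 297 CPM. YY1 rose from 205 to 412 CPM.

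Genes of end processing went both ways. Of 18 tested, 9 rose, 7 fell and 2 did not pass (median 0.11), where 41.8% of all genes tested rose and 41.2% fell. SLBP, the stem-loop binding protein, had 101, 99.3, 103, 151, 151 and 140 CPM (log2 fold change 0.54, edgeR adjusted p = 6.93e-14). The 2 proteins specific to the U7 snRNP parted: LSM10 fell from 34.7 to 11.6 CPM (-1.57, edgeR adjusted p = 3.68e-20) and LSM11 rose from 22.2 to 27.2 CPM (0.29, edgeR adjusted p = 2.17e-05). ZNF473, which binds the complex of SLBP and message, rose from 28.8 to 77.6 CPM (1.43). SRRT, the cap-complex protein ARS2, rose from 192 to 397 CPM, and MIF4GD, a partner of SLBP in translation, fell from 46.7 to 31.4 CPM. SNRPB rose by 0.57 and CSTF2T by 0.57.

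All 7 tested genes for decay of histone messages rose (median 0.43), against 41.8% of all genes tested. Their log2 fold changes ran from 0.16 to 1.71. ERI1, the exonuclease that trims the stem-loop, rose from 36.3 to 47.3 CPM (log2 fold change 0.38, edgeR adjusted p = 8.74e-09). ZCCHC6, which adds uridines to the end, rose from 15.5 to 50.7 CPM (1.71), UPF1 from 152 to 252 CPM (0.73), LSM1 from 13.7 to 22.1 CPM (0.69) and EXOSC10 from 81.0 to 109 CPM (0.43). Tested against a fold of 1.5, the calls of ERI1, EXOSC10, LSM11, SLBP, NPAT, CDK2, SNRPB, CSTF2T and MIF4GD were lost.

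Genes of DNA replication, to which histone supply is coupled, rose more often than they fell. Of 31 tested, 21 rose, 5 fell and 5 did not pass, where 41.8% of all genes tested rose and 41.2% fell. Their median was 0.27, and that of histone members at the filter level in all untreated libraries was 1.20. CDT1 and ORC1, which load the helicase at origins, rose from 167 to 683 CPM (log2 fold change 2.03) and from 37.5 to 92.4 CPM (1.30). GINS3 rose from 36.2 to 91.9 CPM (1.34), RFC2 from 133 to 254 CPM (0.94) and PCNA from 454 to 521 CPM (0.20). GINS1 and GINS4 were among the 5 that fell.

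Among 23 rows of other kinds of RNA that have no poly(A) tail, 7 were tested. All 7 rose (median log2 fold change 5.38), against 41.8% of all genes tested. Of these, RN7SL1, RN7SL2, RPPH1 and RMRP were at the filter level in all untreated libraries, while SCARNA2, RNU4-2 and SNORD3A could be tested only through MGO. RN7SL1, the signal recognition particle RNA, went from 95.9 to 289 CPM (1.59) and RN7SL2 from 79.5 to 221 CPM (1.47). SCARNA2 went from 8, 6 and 3 to 108, 105 and 94 counts (5.38). RNU4-2 went from 1, 5 and 1 to 26, 18 and 17 counts (4.27, and 5.31 without untreated library 2). The summed level of all 23 was 166 to 192 CPM in untreated and 625 to 661 CPM in MGO libraries. RN7SL1 and RN7SL2 made up 98.7% of this sum in untreated libraries. The other 21 rows together went from 2.37, 2.38 and 2.28 to 163, 125 and 102 CPM. Of the 16 rows not tested, RNU7-1, the U7 RNA itself, and RN7SK were at 0 in all libraries. RNU5B-1, RNU6-1, TERC, VTRNA1-3 and RNU6ATAC, with 6 to 46 counts each, stood at 1.18, 0.961, 1.01, 0.945 and 0.682 times their untreated mean. The other 9, with 5 to 34 counts each, had higher means with MGO. The part of these RNAs in the rise of the histone genes was not tested.

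**Figure D5:**
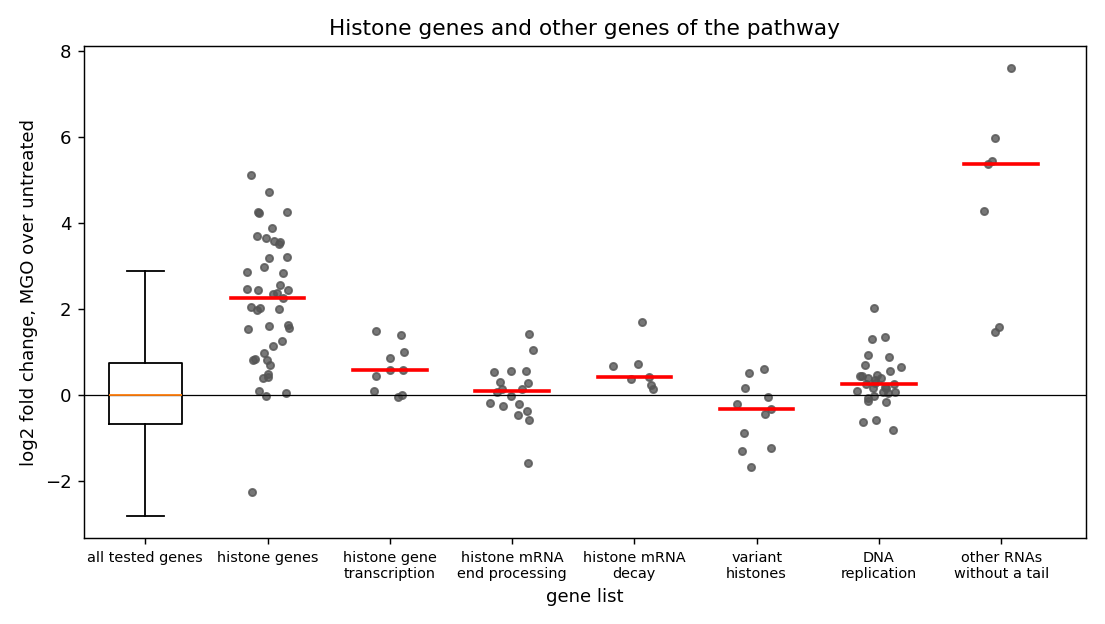
Log2 fold change (MGO over untreated) of each tested gene (points) and the median (red line) in the histone genes and the related lists, beside a box plot of all tested genes (box, quartiles; orange line, median; whiskers to 1.5 times the box height, points beyond not drawn). Medians are 2.25 for histone genes, 0.59 for their transcription, 0.11 for end processing, 0.43 for decay, -0.31 for variants, 0.27 for replication and 5.38 for RNAs without a tail. For histone genes at the filter level in all untreated libraries the median was 1.20.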

How the data were processed

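Per the labels' protocols, poly(A)-selected RNA of HEK293T GLO1-knockout cells, 3 untreated and 3 MGO libraries, was sequenced as paired reads. The authors deposited raw counts per gene symbol, 56832 rows per library, not normalized. The submitters' processing notes name STAR 2.4, HTSeq 0.9.1, Trim Galore and Picard, and the build hg38. Settings, annotation and strand use: not given in the sources used here. Near-identical, overlapping and antisense histone genes are therefore uncertain.

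Counts of all rows were tested in edgeR 4.0.16 (R 4.3.3) with filterByExpr, TMM scaling, robust glmQLFit and a two-sided glmQLFTest without covariates (4 residual degrees of freedom). Benjamini-Hochberg adjustment ran over all 17415 genes tested, at 0.05. The code was tested on simulated data. Levels are TMM-scaled CPM, and SE is the log2 fold change over the square root of F. The 4 rows with repeated names are not named. PCR reads are not independent molecules, and the total of each library sets its precision.

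All 75 rows matched GENCODE release 29 and 69 matched a RefSeq symbol by name. Levels per kb use GENCODE model length, since the RefSeq protein lengths planned for this were not used here. Named by rule were, per type, the 4 tested members with the highest mean CPM, the 3 largest and 3 smallest changes at a mean of at least 1 CPM, members that fell or did not pass, and those at the edge of 10 counts. From other lists it took SLBP, NPAT, CASP8AP2, LSM10, LSM11, ZNF473, ERI1 and up to 4 genes by smallest p. Further genes, chosen after their values were seen, are HIST2H2BF, HIST1H2BN, HIST1H2BC, HIST1H2AH, HIST1H4A, HIST4H4, BTN2A1, BTN3A2, H3F3B, H1F0, H2AFX, PCNA, GINS1, GINS4, the RNAs without a tail that were not tested and other members given by range or count. Some genes of the lists are not reported here. The members and lists were chosen with earlier results of these data known.

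Library pairs within groups differed by more than sampling noise (chi-square per degree of freedom 1.88 to 14.7), so each counted once. Alternatives were RLE, upper quartile and library size scaling, other filters, DESeq2 1.42.0, limma voom (limma 3.58.1), edgeR without robust shrinkage, a test against a fold of 1.5, leaving out libraries, no minimum of 10 counts and a replicate block.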

Additional observations from a re-analysis of the deposited data

How the results depend on the processing

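Over all settings that kept the filter, 36 to 43 members were called higher, and the median stayed above 0 in every setting. Of all genes tested, 25.1% to 42.5% were called higher in the settings that kept the filter. With at least 1 CPM in every library 17 members were tested and 15 were higher, 0 lower, with a median log2 fold change of 0.90. Of all genes tested there, 42.8% were higher and 43.7% lower. With no filter the median was 1.88, 3 members were lower, and the median of all genes moved to 0.20. Scaled by library size, 2 members were lower and the median of all genes was -0.10. The log2 ratios of the sums were then 0.79 for all rows, 0.84 for H2A, 0.52 for H2B, 1.39 for H3 and 1.37 for H4. A test against a fold of 1.5 called 4363 genes higher and 3942 lower over all genes. The cause of these shifts was not tested.

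Leaving out 1 library at a time gave 39 to 43 members higher, a median of 2.04 to 2.30 and a log2 ratio of the H2B sum of 0.59 to 0.64. Signs turned where changes were near 0. HIST1H4I was at -0.055 by library size, -0.13 with no filter, -0.0018 with both number 1 libraries left out, and ran from -0.0221 to 0.08 on leaving out 1 library, below 0 without untreated replicate 1 (-0.0072) or MGO replicate 3. HIST3H2A was at -0.0047 by library size and -0.081 with no filter, HIST1H2BK at 0.04 with at least 1 CPM in every library, and EPCAM at -0.049 with no filter. Of 1394 values for single genes under other settings, 1351 kept their sign and side of the threshold, 28 lost a call, 6 gained one and 9 turned, those given above.

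The groups share 2 replicate numbers. Same-numbered libraries did not deviate together (correlations 0.0204 and -0.0078 across genes). With so few libraries this cannot show whether they shared a day, culture or batch, and the labels do not say. With the replicate block 41 members were higher and 1 lower, and the block changed no member's call.

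Limits are the 3 libraries per group, depth split as treatment was, and the selection of tailed RNA. In untreated libraries 3 counts correspond to 0.0627 to 0.0705 CPM.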
